A study of Flechtneria rotunda with 10 samples.

Results

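This account describes 155 assembled genes of the desert alga Flechtneria rotunda, a green alga that lives as single cells. These genes were low in hydrated and drying drops, high in dry drops and still high 1 h after water was returned. They were chosen from 17148 genes on the deposited TMM-scaled signal. In each of them the lowest of the 4 dry and rehydrated values was at least 4 times the highest of the 6 hydrated, early and late values. The mean of the dry libraries was at least 5, and the highest of the 5 stage means was under 1.5 times the next. Because these values chose the genes, the rise itself is given as a description, with no test. A limit of 200 genes in the rule was not reached.

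The study followed drops of 40 µL of strain SEV3VF49, grown for 6 weeks without any other agent or genotype named in the labels, and sequenced RNA in 2 libraries per stage. Hydrated drops were collected at once. Early desiccation was collected at 2.5 h, with 25% of the volume lost, and late desiccation at 7.5 h, with 60% lost. Dry drops were flat, were left 11 h longer in the drying chamber and were collected at about 24 h. Rehydrated drops were collected 1 h after rewetting. All stages come from 1 strain in culture, and no label states that replicate libraries were grown separately, so p-values measure how 2 libraries of a stage differ, possibly for technical reasons.

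As background, a drying cell loses water until its cytoplasm is concentrated and its metabolism nearly stops, and cells of desert green algae can survive that state and resume photosynthesis when wetted. Transcripts measured in dry cells are a mixture of what was made before or during drying and what was not degraded. Transcripts measured soon after rewetting also include those carried over from the dry state. The identifiers of these genes come from a transcriptome assembly and are not paired with names or functions in the files. The genes are therefore described by level and timing, and 4 are printed by identifier.

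Library totals ran from 1696650 to 5409198 rounded counts, and the late libraries were the deepest. The late libraries had reads for 16728 and 16972 genes, against 10742 to 13774 in the other 8. In bulk RNA, fewer cells of a type and less RNA per cell cannot be told apart, and the amount of RNA per drop was not measured.

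In every one of the 10 libraries the set covered a wide range of levels. The step between late and dry drops was the largest between successive stages by the median, which the rule largely sets. The median signal of the 155 genes was 7.82 in both hydrated libraries, 6.42 and 6.79 at early desiccation, 12.9 and 7.35 at late desiccation, 119 and 97.9 in dry and 104 and 106 in rehydrated drops. The 2 hydrated and the 2 early libraries thus lay close together, the late pair was split, and the 4 dry and rehydrated libraries lay close together. As a share of all counts, which does not depend on the scaling between libraries, the 155 genes held 0.439% ± 0.058 in hydrated, 0.548% ± 0.060 after 2.5 h and 0.876% ± 0.37 after 7.5 h (SD, n = 2 each). They held 5.35% ± 0.0094 in dry and 6.5% ± 2.08 in rehydrated drops (SD, n = 2 each). The wide error of the rehydrated share came from 5.03% in replicate 1 and 7.97% in replicate 2.

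**Figure D1:**
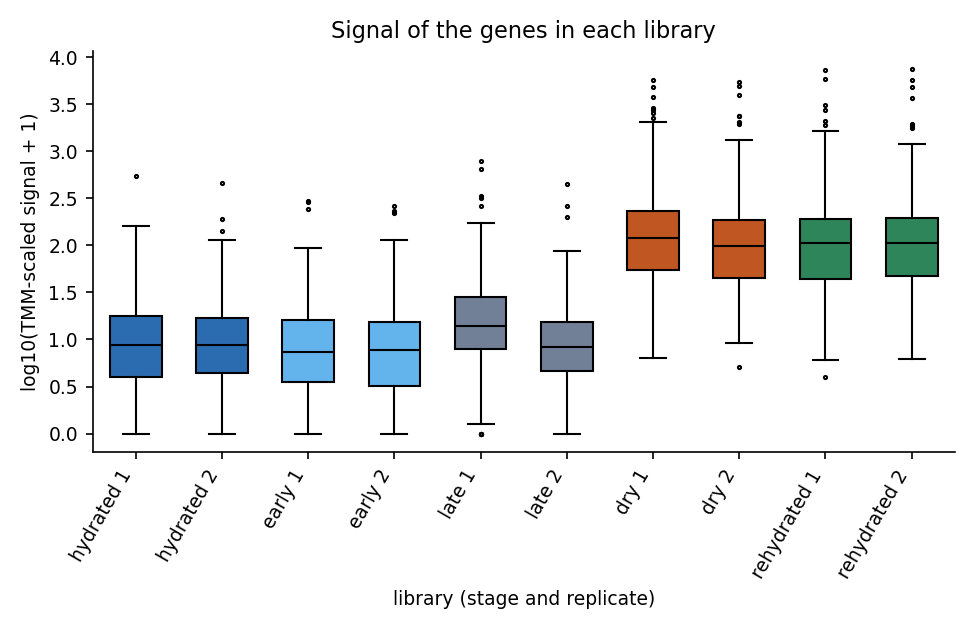
Box plots of the log10(TMM-scaled signal + 1) of the 155 genes in each of the 10 libraries, coloured by stage; boxes are quartiles, lines medians, whiskers reach 1.5 times the box height and points lie beyond. The medians of the 4 dry and rehydrated libraries lie between 97.9 and 119 on the linear scale, and late replicate 1 (12.9) stands above late replicate 2 (7.35).

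Ranks within a library gave the same picture without any scaling. The median rank of the set among all 17148 genes was the 71.0th and 71.5th percentile in the hydrated libraries, and the 95.5th to 95.9th in the dry and rehydrated ones. Thus the typical gene of the set was not silent in wet cells: it already ranked above most genes of the table. The typical tested gene did so too, at percentiles of 68.4 and 68.2 in the hydrated libraries. Its median signals there were 6.97 and 6.79, beside 7.82 in the set. Signal was above 0 in all 6 wet and drying libraries for 135 of the 155 genes. The remaining 20 had a 0 in at least 1 of these libraries, and 6 were at 0 in both hydrated libraries.

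**Figure D2:**
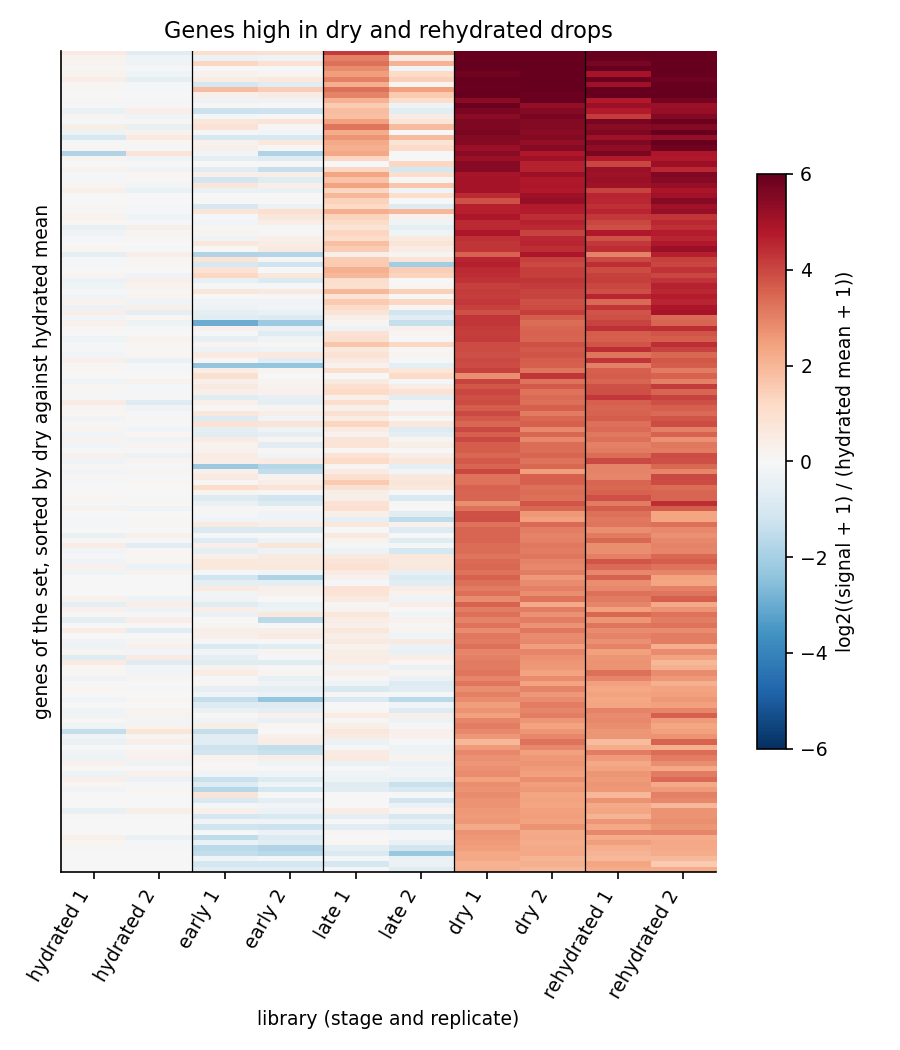
Heat map of log2((signal + 1) / (hydrated mean + 1)) for the 155 genes (rows, sorted by the dry against the hydrated mean) in the 10 libraries (columns); red is above and blue below the hydrated mean. The columns of the 4 dry and rehydrated libraries are red throughout, and late replicate 1 is redder than late replicate 2.

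The size of the rise differed widely among the genes. Among the 149 genes with signal in hydrated drops, the ratio of the dry to the hydrated mean had a median of 12.0, with quartiles of 8.36 and 23.2 and a range from 4.48 to 602. Rehydrated against hydrated means had a median ratio of 12.2, with quartiles of 7.95 and 25.7. Levels in dry drops were also spread: 10 genes had a dry mean of at least 1000, 76 one between 100 and 1000, and 69 one under 100. The 10 genes with the most dry counts held 48.2% of the set's counts in dry drops, and the highest alone 10.6%.

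TRINITY_DN73045_c1_g2 had the widest margin by the ratio used to rank the set. Its signal was 2.94 and 3.47 in the hydrated libraries, 3.41 and 3.27 in the early ones, 11.1 and 2.38 in the late ones, 249 and 163 in the dry ones and 148 and 145 in the rehydrated ones. All wet and drying values but late replicate 1 lay between 2.38 and 3.47, and the dry and rehydrated values overlapped neither them nor late replicate 1. The lowest dry or rehydrated value was 13.0 times the highest of the other 6, and the dry mean of 206 ± 60.9 was 64.2 times the hydrated mean of 3.20 ± 0.38 (SD, n = 2 each). The values rest on 15 and 17.5 expected counts in hydrated and 604 and 489 in dry libraries. At late against hydrated its log2 fold change was 1.08 (SE 0.59, edgeR quasi-likelihood adjusted p = 0.210). Without late replicate 2 that value was 1.84 (edgeR adjusted p = 0.00844), and late against early it was 1.83 (edgeR adjusted p = 0.0184), each resting on late replicate 1 alone. Without late replicate 1 the same changes were -0.30 (edgeR adjusted p = 0.723) and -0.32 (edgeR adjusted p = 0.793). Late replicate 1 was also the highest of this gene's 6 wet and drying values, which the rule used as its ceiling. With 1 late library the spread is taken from the other stages, and the lone library is assumed to vary like them.

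TRINITY_DN67270_c0_g4 had the highest dry mean of the set. Its signal was 548 and 459 in hydrated, 293 and 231 in early, 644 and 264 in late, 5704 and 4954 in dry and 7264 and 5711 in rehydrated libraries. It was thus among the stronger signals before drying and stood at 10.6 times the hydrated mean in dry drops. Its early values were the lowest with late replicate 2, but early against hydrated did not pass the test (-0.75 on the log2 scale, SE 0.40, edgeR adjusted p = 0.259). Its counts were small: 35.5 and 30.4 in hydrated and 257 and 246 in dry libraries. Its counts per unit of signal, a measure of length, were 0.0178 times the median of the tested genes, so a short assembled sequence carried this high signal per length, and by dry counts it ranked 82 among the 155. Without late replicate 1, late against hydrated was a fall of -1.50 on the log2 scale (edgeR adjusted p = 0.0267), against -0.83 with both late libraries (edgeR adjusted p = 0.137).

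**Figure D3:**
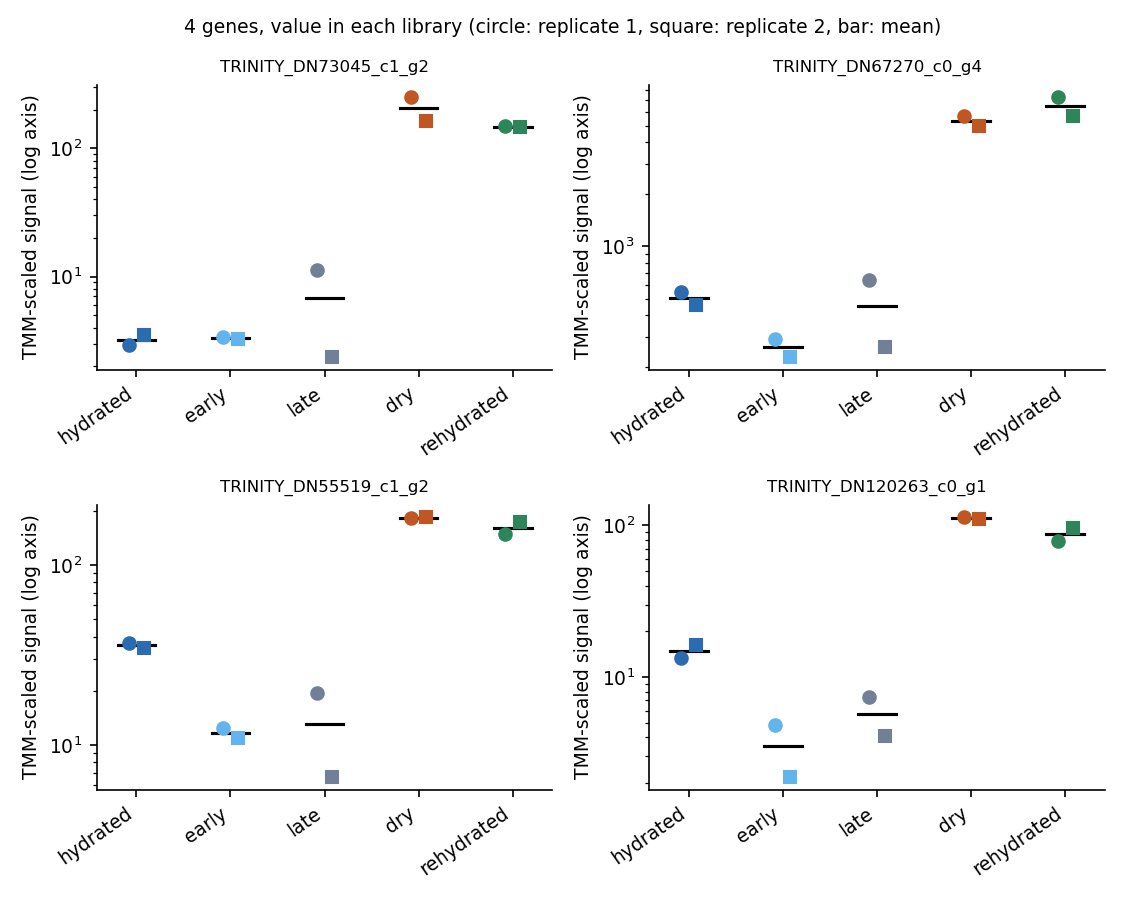
TMM-scaled signal on a log axis in each library for the 4 genes printed by identifier; circles are replicate 1, squares replicate 2 and bars the stage mean. In each panel the dry and rehydrated points lie above all others, late replicate 1 lies above late replicate 2, and in the lower panels the early and late points lie under the hydrated ones.

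At the lower end, 5 genes of the set had a 0 in at least 4 of the 6 wet and drying libraries, and 3 of these in 5 of the 6. Their counts were small at every stage. The best covered had 0 counts in the 4 hydrated and early libraries, 23 and 13 in the late ones, 45 and 87 in dry and 72 and 88.0 in rehydrated ones. The least covered in dry drops had 4 counts over the 6 libraries and 26 over the 4, and was the only gene of the 155 left out of testing for low counts. A count of 0 allows up to 3 counts, which is 1.06 and 1.09 CPM (counts scaled to a common library size, on the TMM scale) in the hydrated libraries (counting error only). These genes were not detected in hydrated drops at this depth, which does not show that they were absent.

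Close to the limits of the rule, genes inside and outside were alike. The genes nearest to the 4-fold limit had ratios of 4.03, 4.04 and 4.05 inside and 3.98, 3.97 and 3.96 outside. The lowest dry mean inside was 5.13 and the highest outside 4.90. The ratio of the higher to the lower of the dry and rehydrated means reached 1.4997 inside and began at 1.501 outside.

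How far the set stood above the rest depended on how libraries were scaled against each other. The deposited signal sums to 1935895 and 1695207 in the dry libraries and to 644523 to 959018 in the wet and drying ones, so dry values stand higher on it than they would with equal sums. On the deposited scale the lowest dry or rehydrated value was a median 5.42 times the highest of the other 6 (quartiles 4.50 and 7.40). With each library brought to the same sum, that median was 2.48 (quartiles 2.02 and 3.27, range 1.49 to 6.0), and 13 of the 155 genes reached 4-fold. All 155 still had every dry and rehydrated value above all other 6 on that scale. The rule fixed this in advance, since the library sums differ by less than its 4-fold limit. Over all 17148 genes of the table this held for 9.91% on the deposited scale and for 3.48% with the sums made equal. The 4-fold size therefore held for the whole set on the deposited scale only. Since the rule chose on this contrast, nothing further is read from it.

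**Figure D4:**
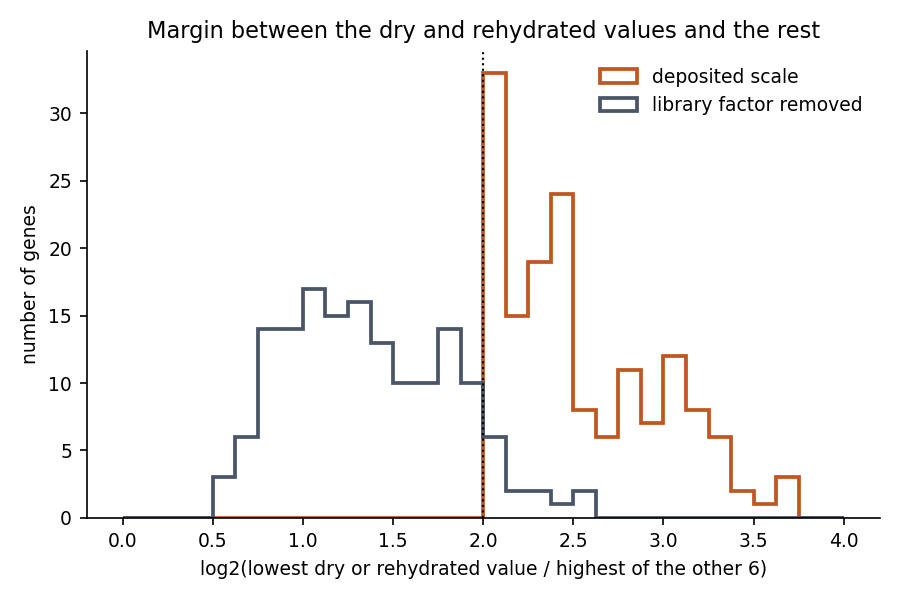
Histogram of log2(lowest dry or rehydrated value / highest of the other 6 values) over the 155 genes, on the deposited scale and with the library factor removed by bringing every library to the same sum; the dotted line marks 4-fold. The medians on the linear scale are 5.42 and 2.48. No gene lies at or under 0 on either scale, which the 4-fold rule fixes given the library sums.

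Dry and rehydrated levels were held close by the rule, and within its limit both directions occurred. The rehydrated mean was a median 0.933 times the dry mean (quartiles 0.785 and 1.15). It was higher than the dry mean in 63 genes and lower in 92. Both rehydrated values lay above both dry values in 22 genes and below them in 35, while the stages overlapped in 98. Over all tested genes these cases made up 32.6% and 16.3%, and because the rule used this contrast nothing is read from the counts. Across the 4 libraries the highest value was a median 1.56 times the lowest. Of the genes that met the 4-fold and level limits, 235 in all, 64 had a dry mean at least 1.5 times the rehydrated one and 16 the reverse. These neighbours are compared with the set below.

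The data from before full drying were then examined. The rule set a ceiling there, so comparisons between these stages are not free of it. Most genes of the set passed no test between hydrated, early and late drops. Of the 155 genes, 154 had enough counts to be tested, 16 of them only through the dry or rehydrated libraries. By edgeR's quasi-likelihood test, adjusted over 10467 genes, 103 were called in none of the 3 comparisons and 51 in at least 1 (33.1%, beside 30.2% of all tested genes). The share called was thus near that of all tested genes. Among the 138 that had enough counts in the 6 wet and drying libraries alone, 45 were called in at least 1 (32.6%). For those 103 the median signals were 8.11 and 8.52 in hydrated, 7.71 and 7.11 in early and 12.9 and 7.60 in late libraries, before 114 and 87.8 in dry ones. With 2 libraries a stage, small changes could be missed.

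At early desiccation the median of the set lay near its hydrated level. Against hydrated, 2 genes rose (1.30% of the 154, beside 5.05% of all tested genes) and 10 fell (6.49%, beside 6.16%). Among the 138 genes with enough counts in the wet and drying libraries, 2 rose (1.45%) and 9 fell (6.52%). The median log2 fold change was -0.14, against 0.00 over all tested genes. With libraries scaled by their totals alone, which moved the median of all tested genes to 0.42 at early and 0.48 at late desiccation, 4 rose (2.6%, beside 7.58% of tested genes) and 6 fell (3.9%, beside 2.22%). With limma on log2(signal + 1), 2 rose (1.29% of 155, beside 1.38% of all genes) and 7 fell (4.52%, beside 1.59%). How the share of falls compared with that of other genes therefore depended on the scaling and the test. With any 1 hydrated or early library left out, both edgeR counts were lower, and so were the shares called over all tested genes.

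The 2 genes that rose at early desiccation, singled out after their values were seen, were also called higher at late desiccation. One was the gene with the next highest dry mean in the set. Its signal was 84 and 75 in hydrated, 285 and 222 in early, 784 and 443 in late, 4839 and 5375 in dry and 5897 and 7463 in rehydrated libraries. It climbed at each stage, with no overlap between hydrated, early, late and dry values (1.65 on the log2 scale at early against hydrated, SE 0.34, with an edgeR adjusted p of 0.00923). The other went from 26.3 and 25.6 in hydrated to 56.5 and 47.1 in early libraries, stayed at 50.3 and 41.4 in late ones, and reached 311 and 265 in dry ones. Its early and late values overlapped, and it was not called between them.

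At late desiccation more genes of the set were raised than at early desiccation. Against hydrated, 31 rose (20.1% of 154, beside 11.5% of all tested genes) and 7 fell (4.55%, beside 13.4%), with a median log2 fold change over the set of 0.40, against 0.04 over all tested genes. Against early desiccation 31 rose (20.1%, beside 6.11%) and 0 fell (beside 5.85%), with medians of 0.64 and 0.01. At an unadjusted p under 0.05, edgeR also gave 0 falls, as did DESeq2 at its adjusted threshold. The 2 lists of 31 shared 20 genes. With library totals alone, 46 rose (29.9%, beside 16.2%) and 0 fell (beside 5.81%) against hydrated. Among the 138 genes with enough counts in the wet and drying libraries, 26 rose (18.8%) and 7 fell (5.07%) against hydrated, and 27 rose (19.6%) against early desiccation.

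The excess of rises over other genes depended on the test together with the genes kept. Against hydrated, edgeR with no filter gave 32 rises (20.6%, beside 8.33%) and DESeq2 gave 29 (18.8%, beside 8.79%). With limma on log2(signal + 1) over all genes of the table, 26 rose against hydrated (16.8%, beside 18.9%) and 21 against early desiccation (13.5%, beside 14.9%). At a pseudocount of 0.1 these were 28 (18.1%, beside 16.4%) and 21 (13.5%, beside 13%). In the limma tests over all genes of the table, the set's share of rises lay near or under that of all genes. Limited to genes with a mean signal of at least 1, limma gave 23 rises against hydrated (14.8%, beside 6.55%) and 10 against early desiccation (6.45%, beside 2.43%). The late libraries, with reads for more genes than the others, enter all of these tests, and the part of that difference was not tested.

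The 31 genes raised at late against hydrated had been low before by their medians. Among them, 1 stood at 84 and 75 in the hydrated libraries. Choosing rises under the rule's ceiling favours low hydrated values. The median signals of the 31 genes were 3.92 and 2.87 in hydrated, 4.18 and 4.83 in early and 26.8 and 9.33 in late libraries. They were 164 and 144 in dry and 174 and 187 in rehydrated ones. In all 31, late replicate 1 was above late replicate 2. The count of 31 was 15 without late replicate 1 (9.68% of 155, beside 5.53% of all tested genes), 13 without hydrated replicate 1 (8.39%, beside 5.49%) and 15 without hydrated replicate 2 (9.68%, beside 5.95%). It was 41 without late replicate 2 (26.5% of 155, beside 7.19%). Against early desiccation the count of 31 was 2 without late replicate 1 (1.29%, beside 1.81%), 7 without early replicate 1 (4.52%, beside 2.69%) and 2 without early replicate 2 (1.29%, beside 1.55%). The share of rises from early to late thus fell under that of all tested genes without late replicate 1 and likewise without early replicate 2, while the share of rises from hydrated to late stayed above it in each of these edgeR fits.

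The late libraries were the replicate pair in which the set differed most. Late replicate 1 was above late replicate 2 in 143 of the 155 genes (92.3%), whereas over all tested genes it was above in 43.2%. It was at least 2 times late replicate 2 in 54 genes of the set (34.8%), beside 3.31% of tested genes, and the reverse held in 4. The median ratio of replicate 1 to replicate 2 was 1.61 at late desiccation, and 0.995 in hydrated, 1.04 in early, 1.15 in dry and 0.937 in rehydrated drops. In dry drops replicate 1 was above in 110 genes (71.0%), beside 41.6% of tested genes. The rule treats both late libraries alike, so it does not fix which of them is higher.

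**Figure D5:**
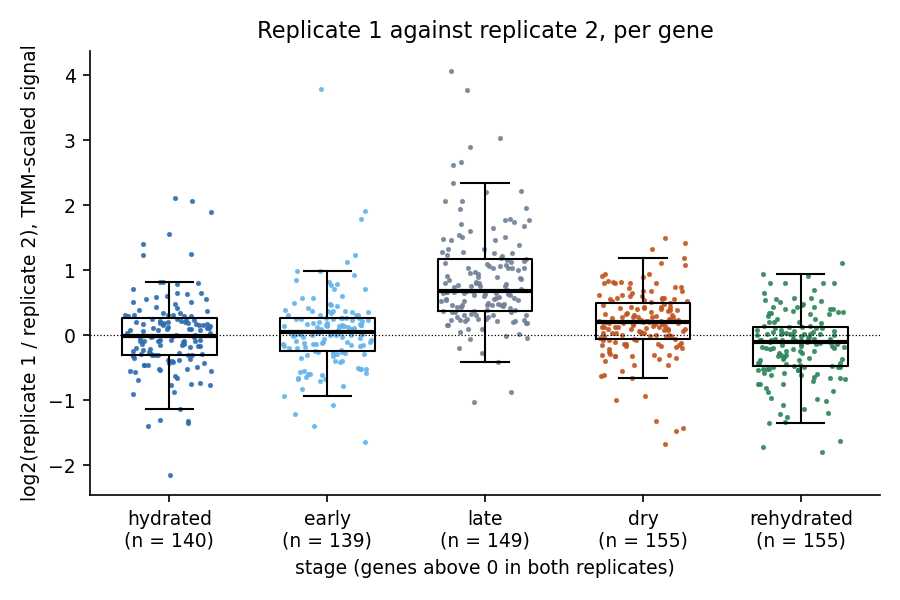
log2(replicate 1 / replicate 2) of the TMM-scaled signal for each gene of the set that is above 0 in both replicates, by stage; points are genes, boxes quartiles and bold lines medians. At late desiccation the points lie mostly above 0 (median ratio 1.61), and in the other stages they spread on both sides of 0.

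Measured from the hydrated mean (0%) to the dry mean (100%), late replicate 1 stood at a median of 5.03% (quartiles 0.974% and 8.49%) and late replicate 2 at 0.0533% (quartiles -3.14% and 3.13%). The early libraries stood at -0.317% and -0.522%. Thus late replicate 2 lay at the hydrated level for the median gene and late replicate 1 a small part of the way to the dry one. The rule kept every late value at least 4-fold under every dry value, so a small part was set in advance. The largest value for late replicate 1 was 19.7%. Late replicate 1 held the highest of the 6 wet and drying values in 106 genes, so it also set the ceiling in the rule for most of the set. Without late replicate 1 the rule took 203 genes and without both late libraries, a choice added after the data were seen, 277.

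The split between the late libraries was not particular to the set. Among the 64 neighbours with higher dry means, late replicate 1 was above in 59 and at least 2 times late replicate 2 in 37, and it stood at a median 4.87% of the way. Among the 16 with higher rehydrated means these were 16, 6 and 6.73%. The 4-fold limit holds these shares of the way low in the neighbours too. Among 1390 tested genes with all dry and rehydrated values above the other 6 but by under 4-fold, late replicate 1 was above in 68.1% and at least 2 times higher in 5.11%. Late replicate 2 was the deeper library, with 5409198 counts against 3561519, and had reads for more genes (16972 against 16728). The part of depth in the split was not tested.

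Before they rose in dry drops, 7 genes of the set fell at late against hydrated, 5 of which had also fallen at early desiccation. TRINITY_DN55519_c1_g2 had the largest fall. Its signal was 36.9 and 34.6 in hydrated, 12.4 and 10.9 in early, 19.4 and 6.67 in late, 182 and 184 in dry and 149 and 174 in rehydrated libraries. Early and late values lay below the hydrated ones without overlap, and the dry values were 5.12 times the hydrated mean, near the lower limit of the set. Its log2 fold change was -1.66 at early (SE 0.41, edgeR adjusted p = 0.0222) and -1.46 at late desiccation (SE 0.40) with an edgeR adjusted p of 0.0193. The late call was lost without hydrated replicate 1 (edgeR adjusted p = 0.0860), hydrated replicate 2 (edgeR adjusted p = 0.0709) or late replicate 2 (edgeR adjusted p = 0.0985), and with library totals alone (edgeR adjusted p = 0.0800). The early call was lost without either hydrated or early library (edgeR adjusted p from 0.0897 to 0.144) and with library totals alone (edgeR adjusted p = 0.0769).

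TRINITY_DN120263_c0_g1 fell by nearly as much. Its signal was 13.2 and 16.3 in hydrated, 4.84 and 2.2 in early, 7.39 and 4.06 in late, 112 and 110.0 in dry and 78.8 and 95.3 in rehydrated libraries. Again no early or late value reached a hydrated one, and the dry mean of 111 ± 1.73 was 7.53 times the hydrated mean of 14.8 ± 2.15 (SD, n = 2 each). The log2 fold change was -2.11 at early (SE 0.40, edgeR adjusted p = 0.00605) and -1.40 at late desiccation (SE 0.37) with an edgeR adjusted p of 0.0150. The late call was lost without hydrated replicate 2 (edgeR adjusted p = 0.105) or late replicate 2 (edgeR adjusted p = 0.151), and with library totals alone (edgeR adjusted p = 0.0912). The early call was lost without early replicate 2 (edgeR adjusted p = 0.0637).

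The other 5 genes that fell at late desiccation were moderate in level, and dry means over the 7 ran from 51.3 to 191. By edgeR few or no falls were called with 1 hydrated library or late replicate 2 left out, and fewer with 1 early library left out. The share called over all tested genes was lower in these fits too. With library totals alone the count was 0, beside 5.81% of all tested genes. For TRINITY_DN55519_c1_g2 the late fold changes in the fits that lost the call for want of 1 library were -1.43, -1.49 and -0.85 on the log2 scale. At early desiccation, 1 gene of the 10 that fell went from 4.55 and 3.92 in hydrated libraries to 0 in both early ones. Its signal stood at 5.21 and 2.55 in the late ones, before 78.3 and 60.9 in the dry ones. That gene had only 7.72 and 6.5 expected counts in hydrated, 0 in early and 14.3 and 11.4 in late libraries. These are near the floor, where 0 counts allow up to 3. It was 1 of 3 genes that fell at early desiccation and rose again from early to late.

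As a description, the rule was also applied to 1 replicate number and read in the other. No label states that the replicates were grown separately, so the libraries read are not shown to be independent of those that chose. With replicate 1 choosing, 218 genes met the rule and 200 were kept. In the replicate 2 libraries, 152 of these 200 (76.0%) again had dry and rehydrated values at least 4 times the highest of the 3 others, beside 2.77% of all genes of the table. With replicate 2 choosing, 286 genes met the rule, and 148 of the 200 kept (74.0%) did so in replicate 1, beside 2.2% of all genes. In both directions 196 of the 200 had the read dry and rehydrated values above the other 3. The full rule, which also limits the dry level and the highest stage, was met again by fewer genes. These were 108 of the 200 when read in replicate 2 and 90 of the 200 when read in replicate 1. The 200 kept genes included 118 genes of the set with replicate 1 choosing and 111 with replicate 2 choosing. The shares therefore describe the rule in 1 replicate and not the set itself. The median ratio in the libraries that were read was 6.01 and 5.51. Both readings use the deposited scaling, under which the dry libraries have the higher sums in both replicates, so the 4-fold margin is not independent of that scaling. With 1 library a stage on each side there is no test, and the table itself was described by its authors as differentially expressed genes, by a choice that is not given.

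The set was also described by features that the rule did not use. Counts per unit of signal, which follow the length of the assembled gene, had a median of 1.2 times that of the tested genes (quartiles 0.750 and 1.69, against 0.670 and 1.43 for the tested genes). The ranges overlapped widely. The median was 0.813 times that of the tested genes in the 64 neighbours with higher dry means. It was 1.77 times in the 16 with higher rehydrated means. Between hydrated and dry drops this length measure shifted by a median of 0.02 on the log2 scale in the set and by 0.02 in tested genes. Because it follows length and was divided by each library's median, a shift near 0 cannot itself show that counts rose. Expected counts were whole numbers in all libraries for 80 of the 155 genes (51.6%), against 71.7% of tested genes. The share was 39.1% of the 64 neighbours with higher dry means and 50% of the 16 with higher rehydrated means. Counts that are not whole arise where reads are divided between similar sequences. The set was more abundant than tested genes in general (median of the mean signal 48.3 against 7.41), which bears on this share as well, and its part was not tested.

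The 155 genes came from 150 assembly components, and 5 components held 2 genes each. By the wider read cluster of the assembly, the number after DN in the identifier, 11 clusters held 22 of the 155 genes, and 116 (74.8%) shared their cluster with another gene of the table, against 58.0% of tested genes. By component, 66 of the 155 (42.6%) shared their component with another gene of the table, against 29.0% of tested genes, and 56.2% in each group of neighbours. Reads may be divided among such genes, so their single values are uncertain. Of the genes printed here, TRINITY_DN67270_c0_g4 shared its component with others, 5 genes in all, TRINITY_DN73045_c1_g2 and TRINITY_DN55519_c1_g2 were in components of 2 genes, and TRINITY_DN120263_c0_g1 stood alone.

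Against its nearest neighbours the set differed in the size of its rise. The 64 genes with higher dry means rose by a median of 31.7 times from hydrated to dry drops, with median signals of 182 and 153 in the dry and 82.4 and 111 in the rehydrated libraries. The 16 genes with higher rehydrated means rose by a median of 17.4 times in dry drops, from hydrated signals of 2.56 and 3.65, which were lower than the 7.82 of the set. The median rise of the set from hydrated to dry was 12.0 times. The groups were divided by the ratio of dry to rehydrated means, so a larger dry rise in the 64 is partly built into the grouping. These values are a description without a test.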

How the data were processed

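The deposited expected counts are estimates per assembled gene, with 10.1% to 19.7% of values per library not whole. The other deposited table holds a signal that the authors scaled between libraries with TMM, per the name of the file; its unit before scaling is not given in the sources used here. Tools named in the submitters' processing notes are RSEM 1.2.28, Bowtie2 2.2, Trimmomatic 0.35, CASAVA 1.4 and also DESeq2; their order is not stated. Columns were matched by replicate number and time.

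The genes of the set were found with the rule given at the start on the TMM-scaled table. Counts were rounded and filtered with filterByExpr (minimum count 10, minimum total 15), scaled by TMM and fitted over all 10 libraries and 5 stages with edgeR 4.0.16 (quasi-likelihood, two-sided, Benjamini-Hochberg over 10467 genes, threshold 0.05; R 4.3.3). Standard errors were obtained by dividing the absolute log2 fold change by the square root of F. Alternatives used DESeq2 1.42.0 and limma 3.58.1 on log2(signal + 1) and log2(signal + 0.1). Library depth is given with the results.

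The members and lists were chosen with earlier results of these data known. Identifiers printed are the genes with the widest margin and the highest dry mean, and the 2 largest called falls at late against hydrated. Lists by function were not used, since identifiers carry no names.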

Additional observations from a re-analysis of the deposited data

How the results depend on the processing

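The rule took 249 genes at 3-fold, 60 at 6-fold, 87 with a tighter limit on the highest stage mean, 22 with every library brought to the same sum (12 of them in the set) and 277 without both late libraries. It took 151 on CPM from the counts, of which 110 were in the set, and 154 to 203 when 1 library was left out. At early against hydrated, 4 genes rose (2.6%, beside 7.58% of tested genes) and 6 fell (3.9%, beside 2.22%) with library totals alone. With DESeq2, 4 rose (2.6%, beside 4.18%). In a fit of only the stages compared, 6 of 131 tested genes of the set rose (4.58%, beside 10.5%) and 20 fell (15.3%, beside 12.2%). For late against hydrated, falls numbered 0 with library totals alone, 4 with no filter and 3 with limma on genes of mean at least 1. That limma test gave 10 rises from early to late (6.45%, beside 2.43%). When 1 library was left out, early rises ran from 0 to 3 and falls from 2 to 13, late rises from 13 to 41 and falls from 0 to 9, and rises from early to late from 2 to 46, while falls from early to late stayed at 0. All other alternatives planned for these counts gave values within 1.5 times those reported.

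The replicate numbers were not taken to pair the libraries. Over tested genes, differences between replicates in log2 CPM (TMM scale, prior count 2) correlated between stages at 0.000422 to 0.141. The value was above 0.1 in 1 of 10 pairs of stages, dry and rehydrated. Over the 155 genes, differences in log2(CPM + 1) on library totals correlated at 0.678 between dry and rehydrated drops, beside 0.183 over tested genes. The correlation was 0.456 over the 64 neighbours with higher dry means and 0.243 over the 16 with higher rehydrated means. Within the set, and less so in the 64 neighbours, dry and rehydrated libraries of the same replicate number thus deviated together. Why was not tested. With the replicate number as a block, 3 genes rose (1.95%, beside 5.36% of tested genes) and 11 fell (7.14%, beside 6.75%) at early against hydrated. Late against hydrated gave 29 rises (18.8%, beside 11.6%) and 7 falls (4.55%, beside 14%). Early to late gave 34 rises (22.1%, beside 6.56%) and 0 falls (beside 6.61%). Depth limits genes with few counts in wet drops, where 0 counts allow up to 3. For the 4 printed genes, no alternative reversed a called direction.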

Other observations

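Within the set, the genes with the larger rises were also those in which the late libraries differed more. When the 149 genes with signal in hydrated drops were divided into 3 parts of like size by the ratio of dry to hydrated means, late replicate 1 was a median 1.31 times late replicate 2 in the lowest part (50 genes), 1.53 in the middle (49 genes) and 2.63 in the highest (50 genes). The ceiling in the rule leaves more room for a high late value where the dry level is higher, and its part in this order was not tested.

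The strongest signals of the set did not all rest on many reads. Of the 10 genes with the highest dry mean, 2 had a length measure of 0.0178 and 0.0726 times the median of tested genes and ranked 82 and 54 in the set by dry counts, with 503 and 866 counts over both dry libraries. The gene with the most counts, 24070 over both dry libraries, had a length measure of 1.46 and ranked 3 by dry mean.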
